A study of Mus musculus with 18 samples.

Results

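The 10 genes described here belong to double-stranded RNA sensing and its signalling and were followed in mouse embryonic fibroblasts under endoplasmic reticulum (ER) stress: the sensors Ifih1 (MDA5), Ddx58 (RIG-I), Dhx58 (LGP2), Tlr3, Eif2ak2 (PKR) and Zbp1, the adaptor Mavs, the kinase Tbk1, the transcription factor Irf3 and the RNA editing enzyme Adar. They were chosen by symbol, as the loci whose gene name in the table was one of these names, and all 10 were found among 51499 assembled loci. The study asked how Argonaute 2, the protein that cleaves target transcripts in RNA interference, affects transcript levels when the ER is stressed. Total RNA was sequenced from 18 libraries in 6 groups of 3. Cells labelled Ago2+/+ or Ago2-/- had received the solvent DMSO, tunicamycin, which blocks N-linked glycosylation, or thapsigargin (500 nM), an inhibitor of the pump that fills the ER with calcium. The sources used here do not give the age of the embryos, the number of cell lines per genotype or the stretch of Ago2 that was deleted.

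Long double-stranded RNA is rare in uninfected cells and is read as a sign of viral replication. In the cytoplasm, RIG-I binds RNA ends that carry a triphosphate, MDA5 assembles along longer duplexes, and LGP2, which lacks the signalling domains of both, modulates them. RIG-I and MDA5 signal through MAVS on mitochondria to TBK1, which phosphorylates IRF3, and IRF3 then enters the nucleus and activates type I interferon genes. TLR3 reads double-stranded RNA in endosomes, PKR halts translation by phosphorylating eIF2 alpha, ZBP1 binds Z-form nucleic acid and can start necroptosis, and ADAR1 edits adenosines in the cell's own duplexes, which keeps MDA5 from sensing them. Several of these sensors are themselves interferon-stimulated genes, since interferon signals through a complex with STAT2 and IRF9, which binds the interferon-stimulated response element (ISRE) in promoters.

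Promoters were read from RefSeq (build GRCm38.p6) as 250 bases before to 50 after the annotated start, and 8 of the 10 genes matched an entry. Dhx58 and Zbp1 had none. The 3 promoters that held the letters GAAANNGAAA of an ISRE core are printed below, 5′ to 3′ on the strand of the gene, because they belong to the gene with the widest range of levels, Ifih1, to one of intermediate range, Ddx58, and to one of narrow range, Eif2ak2. Capitals mark the match. The positions were chr2:62646206-62646505 on the minus strand for Ifih1, chr4:40239776-40240075 on the minus strand for Ddx58 and chr17:78882523-78882822 on the minus strand for Eif2ak2.
Ifih1: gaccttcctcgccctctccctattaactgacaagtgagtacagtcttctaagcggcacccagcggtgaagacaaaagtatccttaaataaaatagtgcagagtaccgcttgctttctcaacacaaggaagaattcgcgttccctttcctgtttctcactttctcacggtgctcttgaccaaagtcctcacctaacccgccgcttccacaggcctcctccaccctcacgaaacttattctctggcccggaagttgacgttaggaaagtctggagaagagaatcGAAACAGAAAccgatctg
Ddx58: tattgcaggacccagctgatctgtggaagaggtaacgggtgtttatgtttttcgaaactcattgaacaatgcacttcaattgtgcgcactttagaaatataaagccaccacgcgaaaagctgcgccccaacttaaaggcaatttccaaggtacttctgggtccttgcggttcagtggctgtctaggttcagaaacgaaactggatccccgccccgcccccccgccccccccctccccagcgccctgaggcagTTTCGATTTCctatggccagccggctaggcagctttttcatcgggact
Eif2ak2: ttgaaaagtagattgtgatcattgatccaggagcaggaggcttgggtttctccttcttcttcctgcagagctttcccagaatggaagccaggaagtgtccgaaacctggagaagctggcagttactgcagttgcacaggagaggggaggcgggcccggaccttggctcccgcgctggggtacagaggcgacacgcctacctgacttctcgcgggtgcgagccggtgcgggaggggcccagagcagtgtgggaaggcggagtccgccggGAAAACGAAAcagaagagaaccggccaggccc
The match began 33 bases after the start of Ifih1 and 19 bases after that of Eif2ak2, both on the strand of the gene. In Ddx58 it began 3 bases after the start and lay on the opposite strand, so the capitals show its reverse complement. The same letters, searched on both strands, were present in 1131 of 32851 promoters of this length, or 3.44%. TTCNNNGAA, the core of a gamma-activated site, was present in the Eif2ak2 promoter, from position -178 to -170 relative to the start, and in 1 of 3 Adar promoters, from 23 to 31 after it, against 8.3% of all promoters. The letters TGACGTGG of an unfolded protein response element occurred in 0 of the 10 promoters of the 8 genes and in 0.676% of all promoters. A match in these windows describes letters only. Only these exact letters were searched, so a promoter without a match may still hold a variant of the element.

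The deposited table gives 1 FPKM for each group, pooled by the authors over its 3 libraries. By its name, FPKM counts fragments per length of transcript and per mapped fragments, but how these libraries were scaled is not stated in the sources used. No value has a replicate error, no difference was tested, the depth is unknown, and fewer expressing cells cannot be told apart from less RNA per cell. Differences are given as the log2 ratio of FPKM + 0.1, and a difference is counted when it was at least 2-fold. Counts over many loci used the 11929 loci whose mean over the groups reached 1 FPKM. Of the 10 genes, 8 passed this filter, and Dhx58 and Zbp1, with means of 0.941 and 0.0873 FPKM, did not.

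The labels need care before any direction is read. The groups labelled Ago2+/+ carry the name DCR1 in the sample titles, and 4 libraries have labels that conflict on genotype. Under the label Ago2+/+, Ago2 itself was at 22.1, 5.75 and 17.0 FPKM with DMSO, tunicamycin and thapsigargin, against 5.61, 15.5 and 20.7 FPKM under the label Ago2-/-. Its lowest values thus stood in 1 group of each labelled genotype, and 2 of the 3 groups labelled Ago2-/- were above 15 FPKM. Genes of the Y chromosome (Uty, Kdm5d, Ddx3y, Eif2s3y) reached 6.03 to 32.3 FPKM in Ago2+/+ thapsigargin and Ago2-/- tunicamycin and stood at a listed 0 in the other 4 groups, while the locus of Xist, the RNA of the inactive X chromosome, was at 46.6 and 33.5 FPKM in Ago2+/+ DMSO and Ago2-/- thapsigargin and at 0.0574 or less elsewhere. Dicer1 lay between 17.5 and 32.7 FPKM. Each group is therefore called by its label only.

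Across all loci the groups lay close together in 3 pairs that cross both labels. Ago2+/+ tunicamycin differed at least 2-fold from Ago2-/- DMSO in 1.44% of loci. The share was 1.58% for Ago2-/- tunicamycin against Ago2+/+ thapsigargin, and 3.58% for Ago2-/- thapsigargin against Ago2+/+ DMSO. Of the 8 genes, 0 differed 2-fold within any of these 3 pairs. The largest differences there were those of Ifih1 and Ddx58 in the last pair, both -0.65, and of Ddx58 in the middle pair, 0.61. What sets these groups close together was not tested, and every direction by genotype or treatment given here rests on the labels.

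Fibroblast markers were present. Vim lay between 952 and 2634 FPKM and was the largest part of the sum of the 8 markers, which was 1584 to 2968 FPKM. Pdgfra ranged from 0.488 to 8.72 FPKM and Pdgfrb from 0.540 to 17.9 FPKM. Col1a1 ranged from 5.97 to 651 FPKM, Dcn did not exceed 1.06 FPKM and Thy1 was listed at 0 in all 6 groups. Leukocyte markers, which matter because immune cells are rich in these sensors, summed to 1.30 to 2.43 FPKM over 7 genes. Cd68 alone of them reached 1 FPKM, and Adgre1 and Tyrobp were listed at 0 throughout. Endothelial and epithelial markers, 4 genes each, summed to at most 0.465 and 1.33 FPKM.

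Ifih1 (chr2:62595798-62646255, minus strand, GRCm38) stood apart from the other sensors in how far its level moved. With DMSO, tunicamycin and thapsigargin it was at 6.81, 0.0748 and 1.37 FPKM under the label Ago2+/+, and at 0.0586, 2.06 and 4.29 FPKM under Ago2-/-. The highest value was 116 times the lowest, or 5.44 as a log2 ratio with 0.1 added, and 4.39% of loci had a range at least as wide. Both lowest groups, Ago2+/+ tunicamycin and Ago2-/- DMSO, were far below 1 FPKM, and 18.3-fold separated them from the next group up. At the top, Ago2+/+ DMSO was 1.59 times Ago2-/- thapsigargin.

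Ddx58 (chr4:40203773-40239828, minus strand) was expressed in every group and moved less. It was at 12.0, 5.45 and 10.8 FPKM under the label Ago2+/+ and at 6.01, 16.5 and 7.60 FPKM under Ago2-/-, in the order DMSO, tunicamycin and thapsigargin that holds from here on. The highest value was 3.03 times the lowest, and 21.2% of loci had a range at least as wide. The same pair of groups held the lowest values as for Ifih1, but the highest was Ago2-/- tunicamycin. Each neighbour in the order of the 6 levels lay within 2-fold of the next.

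Dhx58 was the lowest of the RIG-I-like receptors per length in 4 of the 6 groups, above Ifih1 only in the 2 groups with Ifih1 under 0.1 FPKM and below Ddx58 throughout. Its values were 1.16, 0.577 and 0.896 FPKM with the label Ago2+/+ and 0.678, 0.962 and 1.37 FPKM with Ago2-/-, so that it reached 1 FPKM in 2 groups, Ago2-/- thapsigargin and Ago2+/+ DMSO. Its locus in the table spans 129 kb (chr11:100574904-100704271), whereas the annotated gene on the minus strand covers 9.39 kb. The span also takes in Cnp, Dnajc7, Nkiras2 and Zfp385c, each with a locus of its own, 2 of them on the same strand, and how fragments were divided among them was not tested.

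Tlr3, the endosomal sensor (chr8:45395665-45411080, minus strand), was low in all groups. It was at 2.64, 1.19 and 1.23 FPKM with the label Ago2+/+ and at 1.10, 1.59 and 2.89 FPKM with Ago2-/-. Ago2-/- thapsigargin and Ago2+/+ DMSO were the highest and the other 4 groups lay between 1.10 and 1.59 FPKM. The range was 2.63-fold, as wide or wider in 26.4% of loci, and fell under 2-fold when 1 FPKM was added in place of 0.1.

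Eif2ak2, the kinase that stops translation on double-stranded RNA, varied less. Its levels were 15.1, 12.7 and 15.8 FPKM with the label Ago2+/+ and 12.4, 19.6 and 12.5 FPKM with Ago2-/-. The highest was 1.58 times the lowest, and 61.5% of loci had a range at least as wide. Its locus (chr17:78852564-78906992, minus strand) overlaps Sult6b1 on the same strand.

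Zbp1 (chr2:173206612-173218923, minus strand) was close to the limit of what was listed. It was at 0.208, 0.0502 and 0.0290 FPKM with the label Ago2+/+, was listed at 0 in Ago2-/- DMSO, and was at 0.0182 and 0.218 FPKM in Ago2-/- tunicamycin and Ago2-/- thapsigargin. All 6 values lay below 1 FPKM. The 2 highest groups were again Ago2+/+ DMSO and Ago2-/- thapsigargin, with levels too low to carry a fold.

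**Figure D1:**
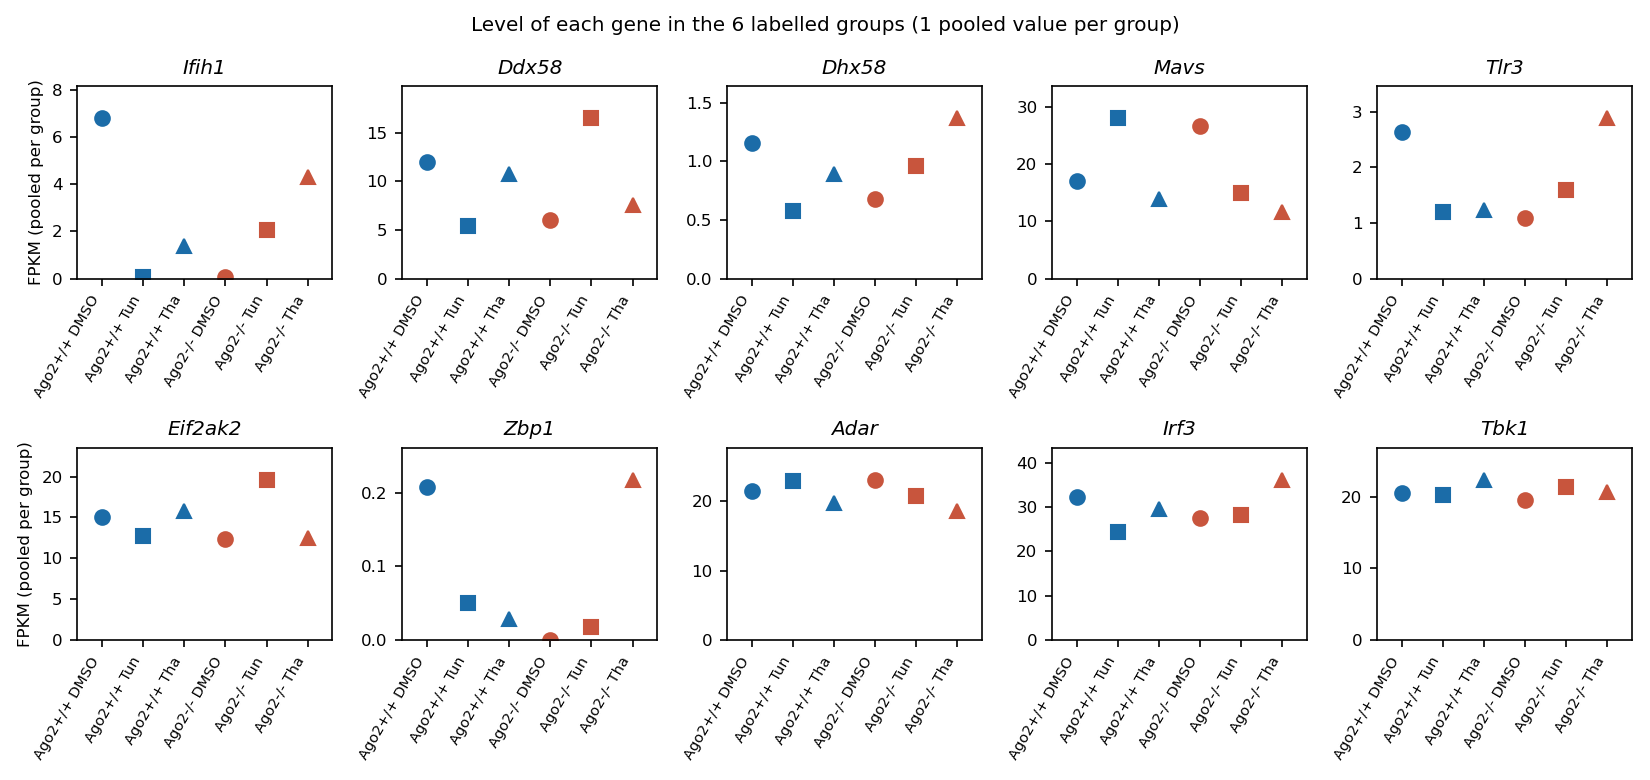
FPKM (vertical axis from 0, on a scale of its own in each panel) of the 10 genes in the 6 groups, 1 pooled value per group without error; circles are DMSO, squares tunicamycin and triangles thapsigargin, in blue for the label Ago2+/+ and red for Ago2-/-. Ifih1 was at 0.0748 and 0.0586 FPKM in Ago2+/+ tunicamycin and Ago2-/- DMSO, whereas Tbk1 lay between 19.6 and 22.4 FPKM.

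Downstream of the helicases, Mavs ran the other way in part. The adaptor (chr2:131234063-131248025, plus strand) was at 17.2, 28.1 and 14.0 FPKM with the label Ago2+/+ and at 26.7, 15.0 and 11.8 FPKM with Ago2-/-. Its 2 highest groups, Ago2+/+ tunicamycin and Ago2-/- DMSO, were the 2 lowest of Ifih1 and Ddx58. This did not hold throughout. With thapsigargin under Ago2+/+, Mavs at -0.29, Ifih1 at -2.23 and Ddx58 at -0.15 on the log2 scale were all below DMSO. The range was 2.39-fold, and 28.3% of loci had one at least as wide.

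The kinase and the transcription factor that act below MAVS were among the more even genes. Tbk1 (chr10:121546455-121586787, minus strand) was at 20.5, 20.2 and 22.4 FPKM with the label Ago2+/+ and at 19.6, 21.3 and 20.6 FPKM with Ago2-/-, a range of 1.14-fold that 98.5% of loci equalled or exceeded. Irf3 was at 32.3, 24.3 and 29.6 FPKM with Ago2+/+ and at 27.5, 28.3 and 36.2 FPKM with Ago2-/-. Its range was 1.49-fold, and 69.6% of loci had one at least as wide. The Irf3 locus (chr7:44986900-45002848, plus strand) also overlaps Bcl2l12 on the other strand, and the sources used here do not say whether the libraries kept strand.

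Adar, the editor that marks the cell's own duplexes, was at 21.5, 22.8 and 19.7 FPKM with the label Ago2+/+ and at 23.1, 20.7 and 18.5 FPKM with Ago2-/-. Its range was 1.25-fold, and 92.6% of loci had one at least as wide. The locus (chr3:89715022-89764632, plus strand) overlaps Chrnb2 on the other strand. Since FPKM is per length, levels can be set side by side: by the mean over groups, Irf3 at 29.7, Adar at 21.1 and Tbk1 at 20.8 FPKM stood above Mavs at 18.8, Eif2ak2 at 14.7 and Ddx58 at 9.72 FPKM, and Ifih1 at 2.44 and Tlr3 at 1.77 FPKM were the lowest of the 8.

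Of the 8 genes, 4 (Ifih1, Ddx58, Tlr3 and Mavs) had a range of at least 2-fold, where 38.0% of all loci did. Their median range was 0.96 on the log2 scale against 0.80 for all loci. By the 2 groups with the highest values, 5 of the 10 genes (Ifih1, Dhx58, Tlr3, Zbp1 and Irf3) had these in Ago2+/+ DMSO and Ago2-/- thapsigargin, or 3 of the 8 that passed the filter, where 17.7% of loci that passed it did. Mavs and Adar had theirs in Ago2+/+ tunicamycin and Ago2-/- DMSO, as did 26.6% of loci. Eif2ak2 and Tbk1 had theirs in Ago2+/+ thapsigargin and Ago2-/- tunicamycin, as did 26% of loci, and Ddx58 in Ago2+/+ DMSO and Ago2-/- tunicamycin, as did 3.32%.

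The first question of the design is how the group of each stressor differed from that of DMSO under the label Ago2+/+. With tunicamycin, 3 of the 8 genes were at least 2-fold lower than with DMSO, Ifih1 by -5.30, Ddx58 by -1.12 and Tlr3 by -1.08 on the log2 scale, where 8.29% of loci were lower. None was 2-fold higher, where 9.61% of loci were, and Mavs came nearest at 0.71. With thapsigargin, 2 of 8 were lower, Ifih1 at -2.23 and Tlr3 at -1.04, against 7.54% of loci, and 0 were higher, against 9.27%. Ddx58 was at -0.15 there. The ratios of Ifih1 that rest on a group under 0.1 FPKM depend on the value added: with tunicamycin it was -2.86 with 1 FPKM added and -6.33 with 0.01. Both Tlr3 ratios fell inside 2-fold with 1 FPKM added, at -0.73 and -0.71. The median of the 8 genes was -0.33 with tunicamycin and -0.14 with thapsigargin, and that of all loci lay at 0.01 in both.

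In the cells labelled Ago2-/-, Ifih1 had the opposite sign with both stressors, Ddx58 past 2-fold with tunicamycin and Tlr3 past 2-fold with thapsigargin. With tunicamycin, 2 of 8 were at least 2-fold higher than with DMSO, Ifih1 at 3.77 and Ddx58 at 1.45, against 11.6% of loci, and 0 were lower, against 10.3%. With thapsigargin, Ifih1 at 4.79 and Tlr3 at 1.32 were higher, 2 of 8 against 8.21% of loci, and Mavs at -1.18 was lower, 1 of 8 against 9.81%. Irf3 was at 0.40, Ddx58 at 0.33 and Adar at -0.32. Both stressors share the DMSO group within a labelled genotype, so their ratios move together with that group, and Ifih1 in the Ago2-/- DMSO group was only 0.0586 FPKM.

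The genotype comparison asks how the labelled lines differed at a given treatment. With DMSO, 2 of 8 genes were at least 2-fold lower in the group labelled Ago2-/-, Ifih1 at -5.44 and Tlr3 at -1.19, against 8.37% of loci. Ddx58 at -0.98 lay just inside the threshold, and 0 were higher, against 9.66%. With tunicamycin, Ifih1 at 3.63 and Ddx58 at 1.58 were higher with the label Ago2-/-, 2 of 8 against 11.6% of loci, and 0 were lower, against 9.88%, with Mavs at -0.90. With thapsigargin, Ifih1 at 1.58 and Tlr3 at 1.16 were higher, 2 of 8 against 7.42%, and 0 were lower, against 9.97%. Eif2ak2, Adar, Irf3 and Tbk1 did not reach 2-fold in any of the 7 comparisons, and their largest ratio was 0.66, of Eif2ak2 with tunicamycin in the cells labelled Ago2-/-.

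**Figure D2:**
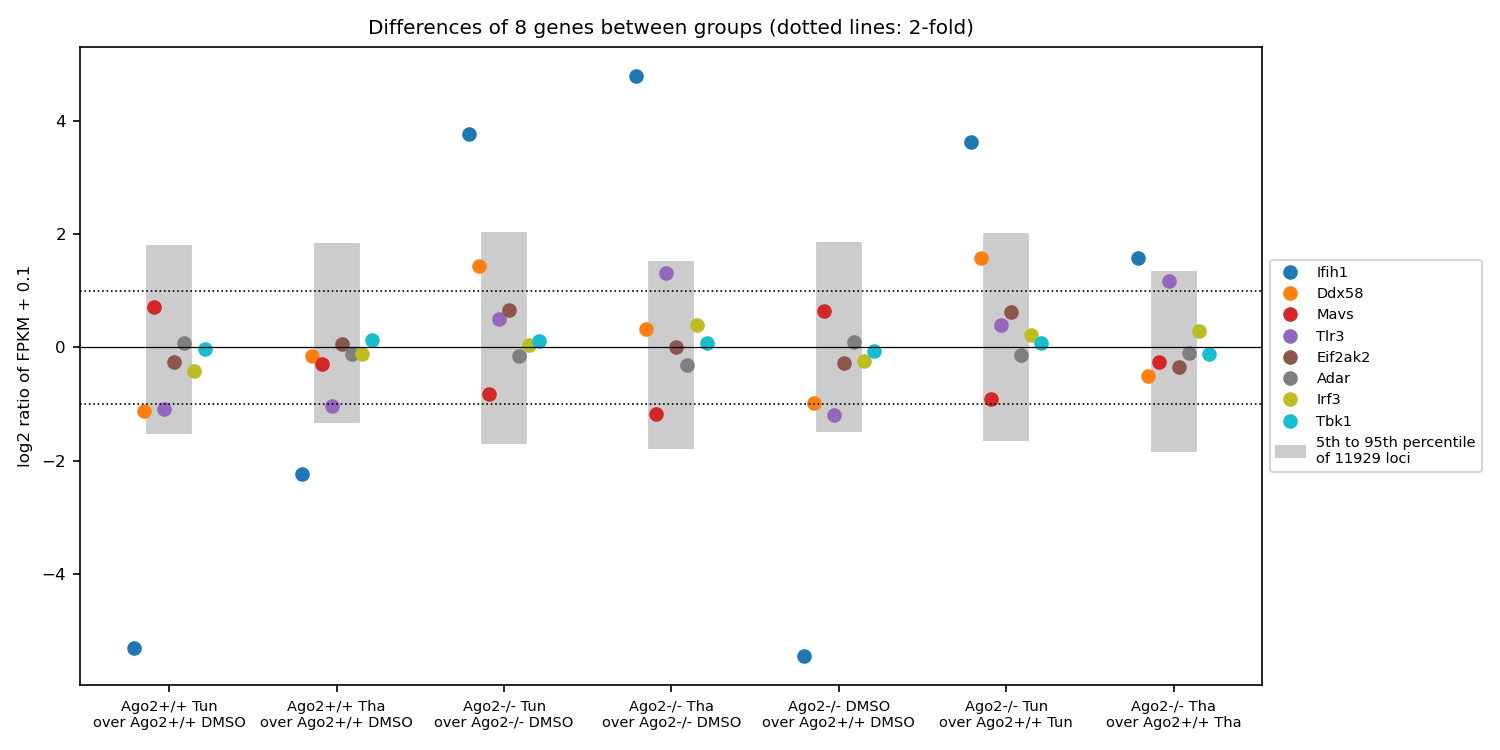
Log2 ratio of FPKM + 0.1 (vertical axis) of the 8 genes that passed the filter in 7 comparisons of groups (horizontal axis); each point is 1 gene without error, grey bars span the 5th to 95th percentile of 11929 loci and dotted lines mark 2-fold. Ifih1 lay outside the grey bar in all 7 comparisons, from -5.44 to 4.79, and the other 7 genes lay inside it.

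Genes that regulate the sensors or act with them were read from lists drawn up by known function, and the 38.0% of all loci with a range past 2-fold is the background for each list. Among the 12 of 15 sensor regulators and cofactors that passed the filter, 5 had a range of at least 2-fold. Zcchc3, a co-receptor that helps RNA reach the helicases, was at 0.495, 14.2 and 3.45 FPKM with the label Ago2+/+ and at 14.5, 3.96 and 0.0388 FPKM with Ago2-/-, highest where Ifih1 was lowest. Trim25, the ubiquitin ligase of RIG-I, was at 7.66, 0 and 6.07 FPKM with Ago2+/+ and at 0, 7.24 and 6.86 FPKM with Ago2-/-. The 2 groups listed at 0 were those with the lowest Ddx58, but a listed 0 is not read as absence. The locus that holds Trim65, a ligase of MDA5, also holds Trim47 and ranged from 17.2 to 43.4 FPKM. The helicase Ddx3x had the highest mean, 228 FPKM, and a range of 0.37. Against DMSO under the label Ago2+/+, 2 of the 12 were at least 2-fold higher (9.61% of all loci) and 1 lower (8.29%) with tunicamycin. With thapsigargin, 3 were higher (9.27%) and 0 lower (7.54%). Under Ago2-/-, 1 was higher (11.6%) and 1 lower (10.3%) with tunicamycin, and 1 higher (8.21%) and 2 lower (9.81%) with thapsigargin.

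Of the adaptors, kinases and transcription factors, 21 of 22 loci passed the filter and 7 had a range past 2-fold. Tmem173 (STING), the adaptor of DNA sensing, was at 26.6, 0.686 and 6.92 FPKM with the label Ago2+/+ and at 0.543, 8.84 and 18.5 FPKM with Ago2-/-. Irf7, an interferon-inducible relative of Irf3, was at 3.86, 0.0575 and 0.303 FPKM with Ago2+/+ and at 0.0159, 1.10 and 2.34 FPKM with Ago2-/-. Both were lowest in the 2 groups in which Ifih1 was lowest, and both were highest in Ago2+/+ DMSO. Irf5 was at 0.657, 1.57 and 8.74 FPKM with Ago2+/+ and at 1.95, 8.16 and 0.509 FPKM with Ago2-/-, with its 2 highest values in Ago2+/+ thapsigargin and Ago2-/- tunicamycin. Nfkb1 had the highest mean of the list, 55.7 FPKM, with a range of 0.77. With tunicamycin under Ago2+/+, 2 of the 21 were at least 2-fold above DMSO (9.61% of all loci) and 2 below (8.29%). Under Ago2-/-, 4 were above (11.6%) and 2 below (10.3%). With thapsigargin, 1 was above (9.27%) and 3 below (7.54%) under Ago2+/+, and 2 above (8.21%) and 3 below (9.81%) under Ago2-/-.

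**Figure D3:**
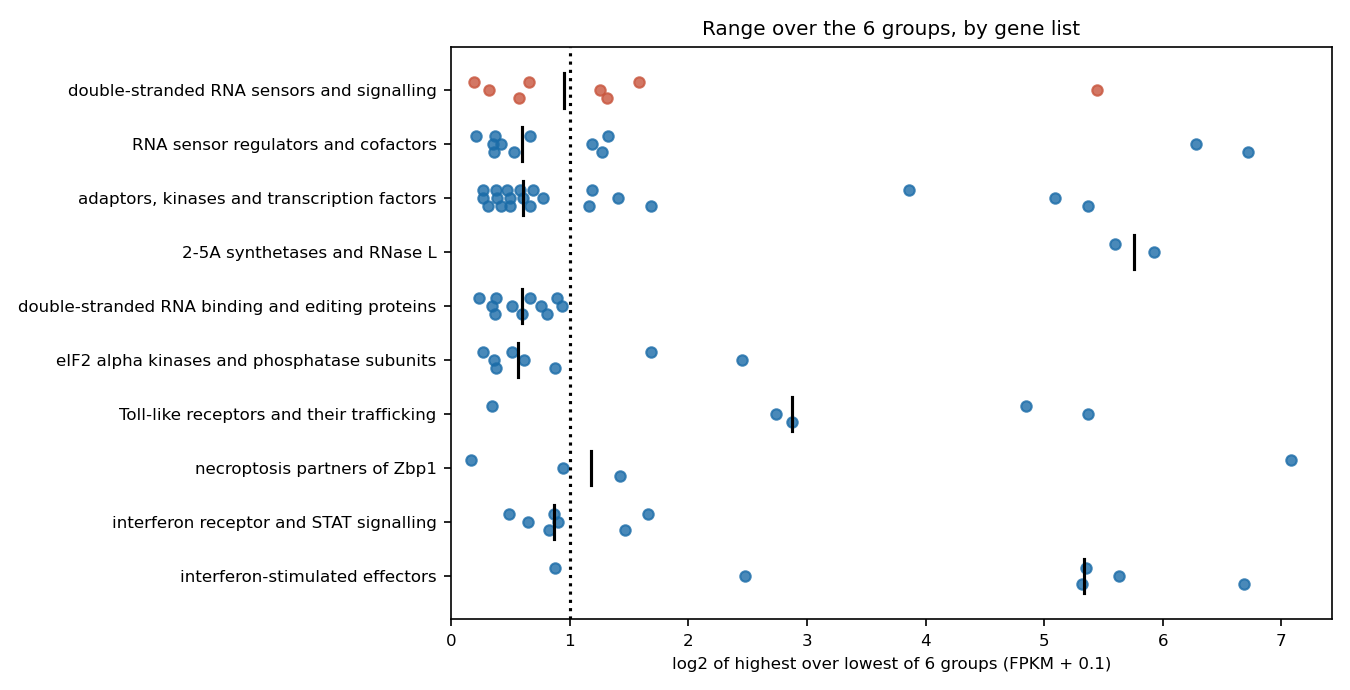
Range of each locus over the 6 groups, as the log2 of the highest over the lowest FPKM + 0.1 (horizontal axis), for loci that passed the filter in each gene list (rows); red points are the 8 genes described, blue points the other lists, black bars the medians and the dotted line 2-fold. The 11 double-stranded RNA binding and editing proteins all lay below 2-fold, and 5 of the 6 interferon-stimulated effectors above it.

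Interferon-stimulated effectors, the genes on which the pathway ends, are a readout of the interferon response. Of 12 listed, 6 passed the filter, and all 6 had their 2 highest values in Ago2+/+ DMSO and Ago2-/- thapsigargin, against 17.7% of loci. A gene high mainly in these groups can pass the filter through them. Of those that did not pass, Ifi44 was highest in Ago2-/- tunicamycin, at 1.65 FPKM against 0.370 in Ago2+/+ DMSO. Cmpk2 was at 0.195 FPKM in Ago2-/- tunicamycin, above its 0.0615 in Ago2-/- thapsigargin. Ccl5, a chemokine, was at 41.3, 0.302 and 2.30 FPKM with the label Ago2+/+ and at 0.712, 4.61 and 27.3 FPKM with Ago2-/-. Cxcl10, another, was at 26.0, 0.429 and 8.97 FPKM with Ago2+/+ and at 0.581, 14.2 and 16.0 FPKM with Ago2-/-. Both were thus lowest in the groups in which Ifih1 was lowest. Ifit1, which binds foreign RNA ends, was at 7.12, 0.0767 and 0.448 FPKM with Ago2+/+ and at 0.148, 1.41 and 4.51 FPKM with Ago2-/-. Bst2, or tetherin, had the highest mean, 32.4 FPKM. Against DMSO, 5 of the 6 were at least 2-fold lower with tunicamycin (8.29% of all loci) and 5 with thapsigargin (7.54%) in the groups labelled Ago2+/+. In those labelled Ago2-/-, 5 were higher with tunicamycin (11.6%) and 5 with thapsigargin (8.21%). Between the labelled genotypes, 5 were lower in Ago2-/- with DMSO (8.37% of all loci), 5 were higher with tunicamycin (11.6%) and 3 were higher with thapsigargin (7.42%).

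The 2-5A synthetases, which make the activator of RNase L on binding double-stranded RNA, were low, and 2 of 9 listed loci passed the filter. Oasl1 was at 12.2, 0.103 and 0.350 FPKM with the label Ago2+/+ and at 0.177, 0.597 and 6.81 FPKM with Ago2-/-. Oasl2 was at 8.53, 0.108 and 0.220 FPKM with Ago2+/+ and at 0.0778, 0.603 and 4.68 FPKM with Ago2-/-. Both shared the 2 highest groups of Ifih1, and each of the 9 loci had its highest value in Ago2+/+ DMSO, including the 2 that passed the filter, and 15.8% of all loci that passed it were highest there. Oasl1 and Oasl2 were both past 2-fold in each comparison with DMSO, lower under Ago2+/+ and higher under Ago2-/-. Both reached a mean of 1 FPKM through Ago2+/+ DMSO and Ago2-/- thapsigargin, so their place there follows in part from the filter. Their folds are given as values only and not as support for a shared pattern. Of all loci, 8.29% were lower with tunicamycin and 7.54% with thapsigargin under Ago2+/+, and 11.6% and 8.21% were higher under Ago2-/-. The Oas genes are near-identical copies in part, so their shares of the fragments are uncertain.

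The interferon receptor path lies between the sensors and the effectors. Ifnb1, the interferon that IRF3 activates, is named outside the naming rule and did not pass the filter. It was listed at 0 in 4 groups and was at 0.0865 FPKM in Ago2+/+ DMSO and 0.0303 FPKM in Ago2-/- thapsigargin. These levels are too low to be read as a difference between groups. Of 9 listed loci, 7 passed the filter and 2 had a range past 2-fold, those of Stat2 at 1.66 and Socs1 at 1.46. The locus of the receptor subunit Ifnar2, shared with Il10rb and Gm21970, followed at 0.90. Usp18, an interferon-induced brake on the receptor, named here after its values were seen, did not pass the filter and was at 2.18, 0.0377 and 0.119 FPKM with Ago2+/+ and at 0.0125, 0.770 and 1.71 FPKM with Ago2-/-, lowest where Ifih1 was lowest. Stat2 was at 6.54, 3.13 and 5.52 FPKM with Ago2+/+ and at 2.48, 8.07 and 5.25 FPKM with Ago2-/-, and its 2 highest groups were those of Ddx58. Jak1 had the highest mean, 46.3 FPKM. With each stressor, 1 of the 7 was at least 2-fold below DMSO under Ago2+/+ and 1 above it under Ago2-/-, with 0 in the other direction. Of all loci, 8.29% were below with tunicamycin and 7.54% with thapsigargin under Ago2+/+, and 11.6% and 8.21% were above under Ago2-/-. In the other direction the shares were 9.61% and 9.27% under Ago2+/+ and 10.3% and 9.81% under Ago2-/-.

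Other proteins that bind or edit double-stranded RNA were even across groups. Of 13 listed loci, 11 passed the filter and 0 had a range past 2-fold. The widest were Stau2 at 0.94, Dicer1 at 0.89 and Adarb1, a second editing enzyme, at 0.81. Dhx9, a helicase that unwinds such duplexes, had the highest mean, 124 FPKM. Dgcr8 was listed at 0 in all 6 groups although microRNA processing in most cells needs it, so a listed 0 is not read as absence here.

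PKR shares its target eIF2 alpha with the ER stress kinase PERK. The list of eIF2 alpha kinases and phosphatase subunits also held Eif2s1, Dnajc3 and Nck1. All 8 loci of the list passed the filter, 2 with a range past 2-fold. Eif2ak3 (PERK) was at 8.83, 9.09 and 17.4 FPKM with the label Ago2+/+ and at 9.29, 20.8 and 6.40 FPKM with Ago2-/-. Dnajc3, an ER co-chaperone known as an inhibitor of PKR and PERK and induced by ER stress, was at 45.6, 71.1 and 109.5 FPKM with Ago2+/+ and at 67.2, 118 and 21.5 FPKM with Ago2-/-. Both had their 2 highest values in Ago2+/+ thapsigargin and Ago2-/- tunicamycin and their lowest in Ago2-/- thapsigargin. The next widest was Eif2s1, eIF2 alpha itself, at 0.88, and the highest mean was that of Ppp1r15a, 93.5 FPKM. Of the 8, 1 was at least 2-fold above DMSO with thapsigargin under Ago2+/+ (9.27% of all loci) and 1 with tunicamycin under Ago2-/- (11.6%). With thapsigargin under Ago2-/-, 1 was below DMSO (9.81%).

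Beside Tlr3, 5 of 11 loci of Toll-like receptors and their trafficking passed the filter and 4 had a range past 2-fold. Tlr2, a receptor of bacterial lipoproteins, was at 5.63, 0.0388 and 1.85 FPKM with the label Ago2+/+ and at 0.0659, 3.26 and 3.80 FPKM with Ago2-/-. Tlr4, the endotoxin receptor, was at 8.65, 7.40 and 1.09 FPKM with Ago2+/+ and at 7.50, 1.41 and 5.50 FPKM with Ago2-/-. Tlr2 thus had the low groups of Ifih1, and Tlr4 was lowest in Ago2+/+ thapsigargin and Ago2-/- tunicamycin. Unc93b1, which carries TLR3 to endosomes, was at 0.0711, 0.441 and 3.18 FPKM with Ago2+/+ and at 0.479, 4.77 and 0.0687 FPKM with Ago2-/-, lowest in the 2 groups with the highest Tlr3. Hsp90b1, their ER chaperone, had a mean of 1858 FPKM. With tunicamycin under Ago2+/+, 2 of the 5 were higher than with DMSO (9.61% of all loci) and 1 lower (8.29%). Under Ago2-/-, 2 were higher (11.6%) and 2 lower (10.3%). With thapsigargin 1 was higher (9.27%) and 2 lower (7.54%) under Ago2+/+, and 1 higher (8.21%) and 2 lower (9.81%) under Ago2-/-.

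Among 4 necroptosis partners of Zbp1, 2 had a range past 2-fold. Ripk3, the kinase that ZBP1 recruits, was at 0.0666, 2.28 and 20.9 FPKM with the label Ago2+/+ and at 2.10, 22.5 and 0.716 FPKM with Ago2-/-. Mlkl, the executioner it phosphorylates, was at 39.6, 19.2 and 15.0 FPKM with Ago2+/+ and at 19.8, 14.7 and 32.5 FPKM with Ago2-/-. Ripk3 was lowest in the 2 groups in which Zbp1 and Mlkl were highest. Cflar followed with a range of 0.94. With each stressor, 1 of the 4 was at least 2-fold above DMSO and 1 below under Ago2+/+. Of all loci, 9.61% were above and 8.29% below there with tunicamycin, and 9.27% and 7.54% with thapsigargin. Under Ago2-/- there was 1 above with tunicamycin (11.6% of all loci) and 1 below with thapsigargin (9.81%).

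The loci whose 6 levels lay nearest in shape to each gene were found by the root mean square difference of their log2 values, centred on their mean, over the 6 groups. Tmem173 was the nearest to Ifih1 at 0.10, followed by Gm21887 at 0.24 and Osbpl10 at 0.30. Nearest to Ddx58 were Aplp2 and the shared locus of Tapbp and Zbtb22, both at 0.12, and Efna2 at 0.13. For Mavs they were 5430405H02Rik at 0.05, Il18bp at 0.07 and Xkr6 at 0.08. These are likenesses over 6 pooled values, of which 3 pairs lie close together, and many loci can take such a shape. Tlr3 was nearest to Gm11223 at 0.06, Itgb3bp at 0.08 and Tmem8 at 0.09, and Dhx58 to Trappc6b at 0.05, Tmem68 at 0.06 and Vopp1 at 0.06. No likeness is given for Zbp1, whose shape is set by the 0.1 FPKM added.

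**Figure D4:**
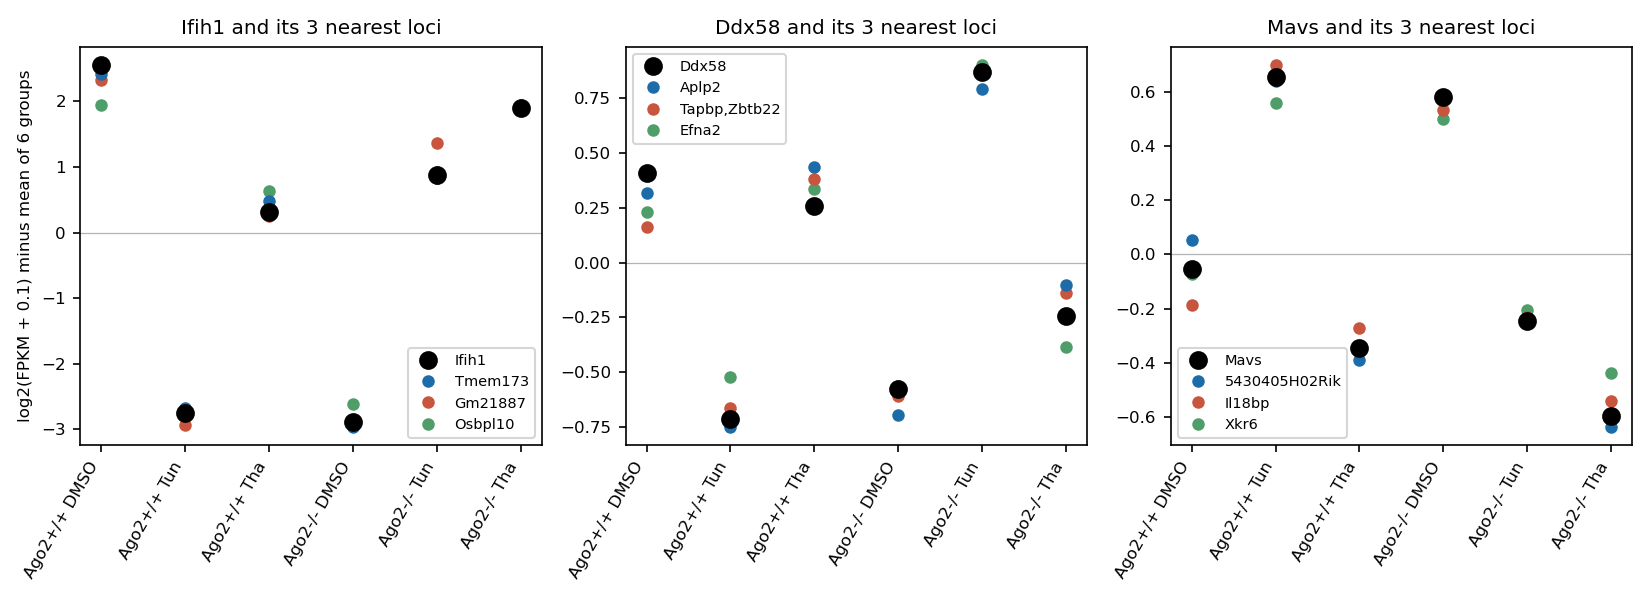
Log2(FPKM + 0.1) minus its mean over the 6 groups (vertical axis, 1 scale per panel) for Ifih1, Ddx58 and Mavs (black) and the 3 loci nearest to each in shape (coloured), in the 6 groups (horizontal axis). Ifih1 and Tmem173 differed by a root mean square of 0.10, and the panels for Ifih1 and Mavs are low and high in the same pair of groups, Ago2+/+ tunicamycin and Ago2-/- DMSO.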

How the data were processed

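RNA sequencing of 18 libraries, 3 in each of 6 groups, was analysed from 1 deposited table. Per the labels, reads were checked with FastQC 0.11.7, aligned with HISAT2 2.1.0 to GRCm38 (Ensembl release 91 per the methods), assembled with StringTie 1.3.4d and quantified with Cuffdiff 2.2.1. How libraries were scaled, and whether they kept strand, is not stated in the sources used. The deposited FPKM values are 1 estimate per group that the authors pooled over its libraries, repeated over 15 pairs of groups, 772485 rows in all for 51499 loci. No replicate error, count or depth can be had from them. The table also holds the authors' own fold changes, test statistics, p-values, q-values and calls, which were not used. The 4 libraries with conflicting genotype labels stayed in the group that their title names.

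Ratios were computed with Python 3.11.15 and pandas 2.3.3 as log2 of FPKM + 0.1, over loci whose group mean reached 1 FPKM, and at least 2-fold was the count rule. The code was tested on simulated data. Of each pathway list, the 3 loci of widest range and the 1 of highest mean were named, and the 3 loci nearest in shape were named for each gene with a range past 2-fold, except Zbp1, left out as too low after its values were seen. Gene spans came from GENCODE release M21 (GRCm38). Alternatives were pseudocounts of 1 and 0.01, no filter, centring on the median locus, and thresholds of 1.5-fold and 4-fold. The genes, lists and the 3 close pairs of groups were chosen with earlier results of these data known. An item withheld from this work is not reported here.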

Additional observations from a re-analysis of the deposited data

Results flagged for a closer look

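For 3 genes the difference of a stressor from DMSO was at least 2-fold in both labelled genotypes and opposite in sign. How many of all loci did the same was not counted, so this number is not read as particular to these genes. The log2 ratio for tunicamycin was -5.30 in the groups labelled Ago2+/+ and 3.77 in those labelled Ago2-/- for Ifih1, 9.07 apart, and -1.12 and 1.45 for Ddx58, 2.56 apart. With thapsigargin it was -2.23 and 4.79 for Ifih1, 7.02 apart, and -1.04 and 1.32 for Tlr3, 2.36 apart. With 1 FPKM added in place of 0.1 both thapsigargin ratios of Tlr3 were inside 2-fold, at -0.71 and 0.89. The tunicamycin ratios of Ifih1, which rest on groups at 0.0748 and 0.0586 FPKM, were then -2.86 and 1.53, and -6.33 and 4.91 with 0.01 added. The difference between the genotypes was not tested, since each group has 1 pooled value, and both stressors share the DMSO group of their labelled genotype. The directions rest on labels that the levels of Ago2 and of sex-linked genes go against.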

How the results depend on the processing

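The table pools the libraries of a group, so no library could be left out and precision cannot be stated. No paired analysis was possible because the values carry no replicate numbers and come from no test. No direction reversed under any alternative run, though only centring could have reversed one. Adding the same value to both groups, dropping the filter or moving the threshold leaves the sign of a ratio unchanged. With 1 FPKM added in place of 0.1, the number of the 8 genes past 2-fold fell from 2 to 1 in Ago2+/+ thapsigargin over DMSO, in the genotype comparison with DMSO and in that with thapsigargin, and from 3 to 2 in Ago2+/+ tunicamycin over DMSO and Ago2-/- thapsigargin over DMSO, Tlr3 being the gene lost each time. At 1.5-fold, 4 genes were counted in Ago2-/- tunicamycin over DMSO and in the genotype comparisons with DMSO and with tunicamycin. At 4-fold, 1 gene, Ifih1, was counted in each of the 7 comparisons but the genotype comparison with thapsigargin, which had 0. Without the filter, with 0.01 added or with centring, each count stayed within 1.5 times. Of 70 ratios (10 genes in 7 comparisons), centring moved 0 across the threshold, adding 1 FPKM took 10 below it and adding 0.01 brought 3 past it. With 1 FPKM added the ranges of Dhx58, Tlr3 and Zbp1 were 0.59, 0.89 and 0.28, under 2-fold.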
